A study of Mus musculus with 17 samples.

Results

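The genes described here are 7 markers of resident macrophages of the joint lining and of the tissue around vessels, Lyve1, Vsig4, Timd4, Folr2, Cd163, Trem2 and Aqp1. They were chosen by symbol from the 22859 genes of a count table of sorted macrophages from mouse synovium, the membrane that lines joints, and all 7 passed the filter on low counts that left 15272 genes for testing. Bulk RNA-seq had been made from 3 sorted subsets, LYVE1+CX3CR1+ macrophages and MHCII+ macrophages without (MHCII+CD11c-) or with CD11c (MHCII+CD11c+), taken from control mice or 8 h after intravenous injection of immune complexes (IC), which were ovalbumin bound by rabbit antibody. Each of the 6 groups had 3 libraries, except MHCII+CD11c+ macrophages after IC with 2, so that 17 libraries were compared. All mice, controls included, carried the Fcgr2b-KO genotype and so lacked the inhibitory receptor for IgG in every cell, and no library came from mice with an intact Fcgr2b gene. According to the general methods of the study, animals were adults of both sexes. The labels do not say whether libraries of a group came from separate or pooled animals, so that p-values measure only the spread between these libraries.

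Synovial macrophages are known to form a layer that faces the joint cavity and to sit along blood vessels beneath it. Lining macrophages are known for tight-junction proteins and for the receptors encoded by Vsig4 and Trem2. Macrophages around vessels in other tissues are known for Lyve1, Folr2, Cd163 and Timd4, genes of long-lived resident cells that take up hyaluronan, folate, hemoglobin and dying cells. In the synovium, the study found Lyve1, Timd4 and Folr2 in the Cx3cr1+ population that earlier work had called lining macrophages. The members therefore do not divide cleanly between lining and vessels.

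The sort bears on 1 member directly, because LYVE1+CX3CR1+ cells were gated on surface LYVE1, and the other subsets on MHCII and CD11c. Differences of Lyve1 between subsets are therefore not independent of the gate, whereas the other 6 genes were not used in the sort. The summed level of 11 genes linked to the MHCII+ gates was 86.7 to 815 CPM (CPM being counts scaled to a common library total with TMM factors) in LYVE1+CX3CR1+ libraries and 12870 to 39110 CPM in MHCII+ libraries, and in every comparison of LYVE1+CX3CR1+ with an MHCII+ subset all 11 were called lower. Libraries held 2301913 to 7248939 counts, so that 3 counts, the upper limit that a count of 0 allows, correspond to 0.414 to 1.30 CPM. LYVE1+CX3CR1+ libraries after IC were among the shallowest, with 11547 to 14068 genes detected against 16974 to 19926 in LYVE1+CX3CR1+ controls. Fcgr2b was read at 69.3 to 248 CPM in all libraries, but a total per gene does not separate deleted from retained exons and checks nothing here.

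Libraries that stand apart are described first, because replicate 2 of both MHCII+ control groups had higher levels of LYVE1+CX3CR1+ genes than its group. Genes at least 8 times higher in LYVE1+CX3CR1+ controls than in the other 2 libraries of an MHCII+ control group were taken, and the excess of each library was expressed as a share of the LYVE1+CX3CR1+ level. In MHCII+CD11c- control library 2 the median share was 55.5% (52 genes, quartiles 34.8 and 87.0), against -6.14% and -5.16% in libraries 1 and 3, where only 2 genes met the rule. In MHCII+CD11c+ control library 2 it was 23.6% (221 genes, quartiles 11.5 and 37.5), against -2.60% and -1.86% in libraries 1 and 3, with 76 genes each. Both libraries numbered 2 thus stood above the other 2 libraries of their group at the genes so chosen. The rule takes new genes for each library, and a raised library lowers the shares of the others. Shares of different libraries are therefore not like for like. After IC the same measure was 35.1% (51 genes) in library 1 of MHCII+CD11c- macrophages, against 2.09% (2 genes) and -8.46% (3 genes) in libraries 2 and 3. It was 9.56% (124 genes) in library 1 of MHCII+CD11c+ macrophages, against -3.65% (46 genes) in library 2. Results are therefore given with all 17 libraries, and again without both control libraries 2, or without these and both IC libraries 1 (13 libraries). The set of 13 libraries was chosen after seeing the data. Since libraries were left out for high levels of LYVE1+CX3CR1+ genes, differences of such genes in the smaller sets follow in part from that choice.

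The genes differ in position and structure, and are placed here by GENCODE M21 (GRCm38, mm10). Lyve1 lies at chr7:110850607-110863239 on the minus strand, Vsig4 at chrX:96247203-96293438 on the minus strand and Timd4 at chr11:46810800-46844332 on the plus strand. Cd163 lies at chr6:124304656-124330527, Aqp1 at chr6:55336432-55348555 and Trem2 at chr17:48346401-48354147, all on the plus strand. Folr2, at chr7:101839988-101857194 on the minus strand, overlaps the antisense gene Gm10602 and the pseudogene Gm45319 on the plus strand, and since use of the strand in counting was not given in the sources used here, reads of the 3 genes cannot be told apart. Counts were summed over all exons of a gene, so isoforms and UTRs are not separated.

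Upstream sequences are shown for Timd4, the only member called after IC with 17 libraries, and for Vsig4, Trem2 and Aqp1, which varied together. Each is the 250 bases before the annotated start (RefSeq, GRCm38.p6), 5′ to 3′ on the strand of the gene, with matches to GAGGAA (core of the macrophage factor PU.1), GGAAGT (an ETS core) or TGCTGAC (a MAF core) in capitals, on either strand. Sequences were found for 6 of the 7 genes, all but Lyve1.
Timd4, chr11:46810549-46810798, plus strand: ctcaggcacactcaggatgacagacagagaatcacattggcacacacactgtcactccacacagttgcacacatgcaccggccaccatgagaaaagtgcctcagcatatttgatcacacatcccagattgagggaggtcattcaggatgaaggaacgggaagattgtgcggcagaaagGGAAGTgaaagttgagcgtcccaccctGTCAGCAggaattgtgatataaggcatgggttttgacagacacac
Vsig4, chrX:96293439-96293688, minus strand: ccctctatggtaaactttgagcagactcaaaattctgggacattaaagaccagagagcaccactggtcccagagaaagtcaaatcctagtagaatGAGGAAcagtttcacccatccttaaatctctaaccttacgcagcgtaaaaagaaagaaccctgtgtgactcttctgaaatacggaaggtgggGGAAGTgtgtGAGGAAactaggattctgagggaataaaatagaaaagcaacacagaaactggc
Trem2, chr17:48346151-48346400, plus strand: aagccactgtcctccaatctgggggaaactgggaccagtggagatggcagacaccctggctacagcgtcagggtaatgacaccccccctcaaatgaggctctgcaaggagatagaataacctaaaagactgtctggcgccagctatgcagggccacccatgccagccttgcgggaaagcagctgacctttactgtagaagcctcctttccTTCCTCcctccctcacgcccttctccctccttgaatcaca
Aqp1, chr6:55336049-55336298, plus strand: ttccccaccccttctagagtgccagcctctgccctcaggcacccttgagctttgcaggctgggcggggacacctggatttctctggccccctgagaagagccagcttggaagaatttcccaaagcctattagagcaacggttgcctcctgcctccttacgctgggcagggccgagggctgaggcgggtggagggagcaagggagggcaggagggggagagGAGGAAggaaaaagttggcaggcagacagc
The Timd4 window held 1 GGAAGT, 72 bases before the start, and 1 TGCTGAC on the reverse strand, 45 bases before it. The Vsig4 window held 2 GAGGAA, 155 and 53 bases before the start, and 1 GGAAGT at 63 bases. Trem2 had 1 GAGGAA on the reverse strand at 40 bases and Aqp1 had 1 at 30 bases. Among 32851 such windows, 23.3% held GAGGAA, 19.7% GGAAGT and 3.81% TGCTGAC, and the first 2 motifs can overlap. These matches are descriptions of the letters and were not related to binding.

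Timd4, which encodes TIM4, a receptor for phosphatidylserine on dying cells, was the only member called after IC with 17 libraries. In MHCII+CD11c+ macrophages it was at 9.78, 11.9 and 12.5 CPM in controls and at 52.2 and 48.6 CPM after IC. Both IC libraries stood above all 3 controls, and control library 2 was not apart from the other controls at this gene. Timd4 rose 4.44-fold (log2 2.15 ± 0.36, SE, 95% interval 1.41 to 2.89, adjusted p = 0.0113, edgeR quasi-likelihood test). It was the only one of the 7 members called in this comparison, in which 0.216% of all tested genes (33) passed, and the only one whose groups did not overlap, which was true of 23.1% of all tested genes.

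In MHCII+CD11c- macrophages Timd4 was at 80.4, 46.1 and 148 CPM in controls and at 168, 87.1 and 173 CPM after IC. The groups overlapped, and the difference of 0.65 ± 0.30 on the log2 scale was not called (unadjusted p = 0.0456, adjusted p = 0.482). LYVE1+CX3CR1+ controls had 150, 138 and 185 CPM and IC libraries had 173, 162 and 185 CPM. These libraries were close to each other (log2 0.14 ± 0.30, adjusted p = 0.906). Mean levels fell in the order LYVE1+CX3CR1+ IC (173 ± 11.5 CPM, SD, n = 3), LYVE1+CX3CR1+ control (158 ± 24.4, n = 3), MHCII+CD11c- IC (143 ± 48.0, n = 3), MHCII+CD11c- control (91.5 ± 51.9, n = 3), MHCII+CD11c+ IC (50.4 ± 2.54, n = 2) and MHCII+CD11c+ control (11.4 ± 1.42, n = 3). Neighbors overlapped in their libraries except the last pair.

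The call of Timd4 in MHCII+CD11c+ macrophages rested on few libraries. Without control library 1, control library 3 or IC library 1 the log2 change was 2.05, 2.21 and 2.09, and the adjusted p was 0.0930, 0.0737 and 0.187. Without both control libraries 2 it was 2.19 (adjusted p = 0.000483). Over 28 alternatives the change lay between 2.05 and 2.29 and was called in 22. Among genes of phosphatidylserine uptake other than Timd4, none of the 10 tested was called in this comparison, and their median change was 0.63. Hmox1, which encodes a heme-degrading enzyme, rose by 0.93 ± 0.19 (adjusted p = 0.0352) and Maf, which encodes a transcription factor of resident macrophages, by 1.38 ± 0.23 (adjusted p = 0.00965) in the same libraries. The summed level of 6 macrophage markers was also higher there, 2871 to 3073 CPM after IC against 1785 to 2184 CPM in controls, and that of 7 neutrophil markers was lower, 0.367 to 1.17 against 78.8 to 459 CPM. The part of these in the change of Timd4 was not tested, and in bulk libraries more cells of a type and more RNA per cell cannot be told apart.

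The test of whether the IC effect on Timd4 differed between subsets was not past the threshold. The effect in LYVE1+CX3CR1+ minus that in MHCII+CD11c+ macrophages was -2.01 ± 0.47 on the log2 scale, with an unadjusted p of 0.000335 and an adjusted p of 0.146. None of the 7 members was called in this comparison, in which 0.0327% of genes (5) were called and 1225 had an unadjusted p under 0.05, none in that of LYVE1+CX3CR1+ with MHCII+CD11c- macrophages (0.0262%, 4 genes and 1152), and none in that of MHCII+CD11c- with MHCII+CD11c+ macrophages (0%, 0 genes and 496). DESeq2 called 42, 38 and 2 genes in these 3 comparisons. No member was among them, but it gave no adjusted p for Lyve1. Timd4 was called in the first of them in 7 of 29 alternatives, among them without both control libraries 2 (-2.0, adjusted p = 0.0162) and without MHCII+CD11c- control library 2 alone (-2.01, adjusted p = 0.0277).

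**Figure D1:**
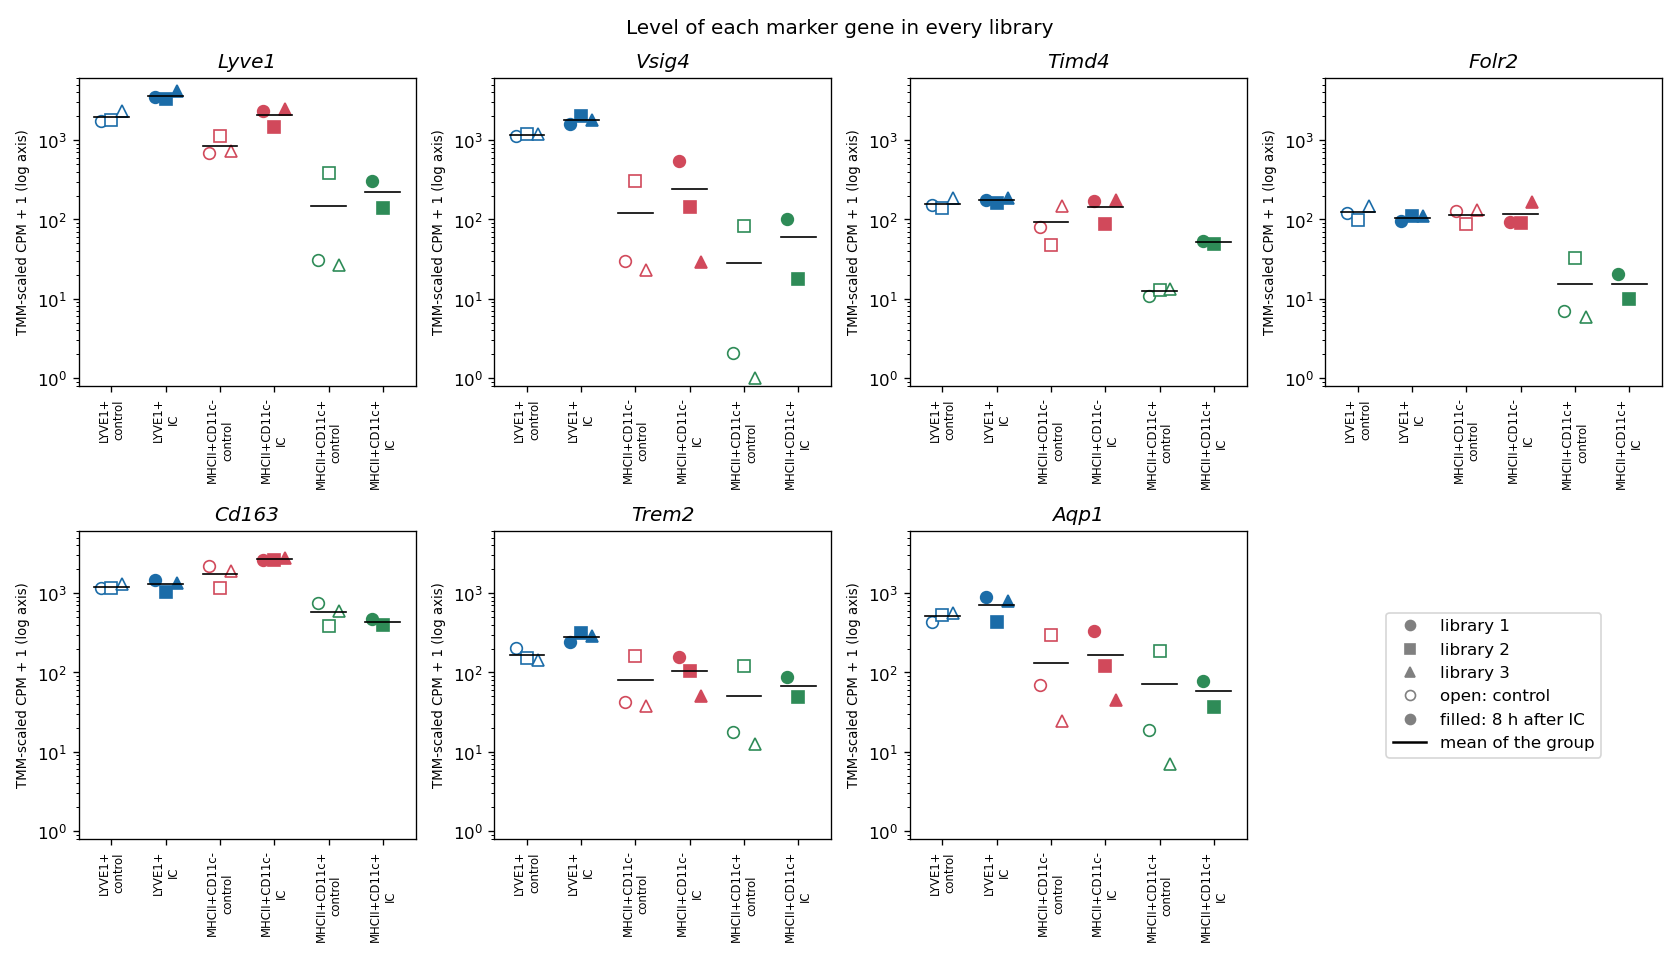
Level of each of the 7 genes in every library (vertical log axis, TMM-scaled CPM + 1), by subset and treatment, with symbols for the library number, open for control and filled for 8 h after IC, and bars for group means. Timd4 in MHCII+CD11c+ macrophages separates by treatment (9.78 to 12.5 against 48.6 and 52.2 CPM), whereas Vsig4, Trem2 and Aqp1 are highest in library 2 of both MHCII+ control groups and in library 1 of both MHCII+ IC groups.

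Lyve1 encodes a receptor for hyaluronan, a major sugar polymer of joint fluid. In LYVE1+CX3CR1+ macrophages it was at 1727, 1801 and 2338 CPM in controls and at 3469, 3272 and 4116 CPM after IC. In MHCII+CD11c- macrophages it was at 695, 1131 and 730 CPM in controls and at 2337, 1455 and 2458 CPM after IC. IC libraries were above all controls in both subsets, and library 2 was the highest control and the lowest IC library of MHCII+CD11c- macrophages. The changes of 0.89 ± 0.81 and 1.29 ± 0.82 on the log2 scale were not called (adjusted p = 0.701 and 0.700). In MHCII+CD11c+ macrophages controls had 29.8, 382 and 25.3 CPM and IC libraries had 303 and 137 CPM. Control library 2 stood above both IC libraries there, 13.9 times the mean of the other controls, and the groups overlapped (0.58 ± 0.89, adjusted p = 1.0).

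The outcome for Lyve1 after IC turned on the libraries named above. Without both control libraries 2 it was called higher after IC in both MHCII+ subsets (1.54, adjusted p = 0.00815 without CD11c, and 2.98, adjusted p = 7.79e-05 with CD11c), and not in LYVE1+CX3CR1+ macrophages (0.94, adjusted p = 0.0710). Without MHCII+CD11c+ control library 2 alone it was called in both MHCII+ subsets (1.29, adjusted p = 0.0298, and 2.99, adjusted p = 0.000301). That library is not part of the comparison in MHCII+CD11c- macrophages, where the change was 1.29 with 17 libraries too. It acts there only through the fit shared by all groups. With 13 libraries, a set chosen after seeing the data, the changes were 0.87, 1.46 and 2.31 in the 3 subsets. The libraries left out were chosen for high levels of LYVE1+CX3CR1+ genes, and control library 2 had the most Lyve1 of both MHCII+ control groups. Leaving it out raises the change by itself, so these calls are not read as a result of IC. DESeq2 gave no adjusted p for this gene in any comparison. Of 8 tested genes of hyaluronan binding and turnover, none was called after IC in any subset, and their median changes were -0.14, 0.19 and 0.17 in the order of the subsets above.

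Cd163 encodes the scavenger receptor for hemoglobin bound to haptoglobin. In MHCII+CD11c- macrophages it was at 2181, 1151 and 1909 CPM in controls and at 2623, 2652 and 2776 CPM after IC. All IC libraries stood above all controls, with control library 2 the lowest, but the difference of 0.62 ± 0.22 on the log2 scale was not called (unadjusted p = 0.00883, adjusted p = 0.261), and it was 0.39 without both control libraries 2. LYVE1+CX3CR1+ libraries had 1166, 1170 and 1295 CPM in controls and 1468, 1033 and 1357 CPM after IC. MHCII+CD11c+ libraries had 746, 388 and 598 CPM in controls and 475 and 391 CPM after IC. The groups overlapped in both (0.09 ± 0.22 and -0.41 ± 0.24, adjusted p = 0.920 and 1.0). Of 9 tested genes of hemoglobin and heme handling, 2 rose in MHCII+CD11c- macrophages after IC, Hmox1 by 0.85 ± 0.17 (adjusted p = 0.0153) and Fth1, a ferritin chain that stores iron, by 0.81 ± 0.15 (adjusted p = 0.00612). In MHCII+CD11c+ macrophages Hmox1 was the only one, and none was called in LYVE1+CX3CR1+ macrophages. Hmox1 was at 453 to 669 CPM in MHCII+CD11c- controls and at 920 to 1220 CPM after IC.

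Folr2, which encodes the folate receptor beta of macrophages, was at 121, 98.6 and 146 CPM in LYVE1+CX3CR1+ controls and at 93.3, 108 and 111 CPM after IC. MHCII+CD11c- libraries had 126, 87.5 and 129 CPM in controls and 92.5, 90.03 and 166 CPM after IC. MHCII+CD11c+ libraries had 5.96, 31.6 and 4.92 CPM in controls and 19.4 and 8.98 CPM after IC. Groups overlapped in all 3 subsets, with control library 2 again the highest of the MHCII+CD11c+ libraries. The IC effects were -0.23 ± 0.51, 0.02 ± 0.51 and -0.04 ± 0.62 on the log2 scale, with 95% intervals from -1.33 to 0.88, -1.08 to 1.13 and -1.37 to 1.29. None of 9 tested genes of folate uptake and use was called after IC in any subset.

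Vsig4, Trem2 and Aqp1 are described together because they varied together between libraries. Vsig4 encodes CRIg, a receptor for complement C3 fragments, and was at 1118, 1209 and 1188 CPM in LYVE1+CX3CR1+ controls and at 1581, 2016 and 1799 CPM after IC. MHCII+CD11c- libraries had 29.0, 306 and 22.4 CPM in controls and 541.5, 144 and 28.3 CPM after IC. MHCII+CD11c+ libraries had 1.06, 81.2 and 0 CPM in controls and 99.9 and 16.7 CPM after IC. The control library listed at 0 had 2549315 counts in all, which allows up to 1.18 CPM, and 1.06 CPM rests on 5 counts. Control library 2 and IC library 1 were thus the highest in both MHCII+ subsets, and the groups overlapped there.

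Trem2, which encodes a lipid-sensing receptor that signals through the adaptor encoded by Tyrobp, was at 200, 153 and 144 CPM in LYVE1+CX3CR1+ controls and at 238, 318 and 284 CPM after IC. MHCII+CD11c- libraries had 42.0, 160 and 36.8 CPM in controls and 155, 105 and 49.3 CPM after IC. MHCII+CD11c+ libraries had 17.02, 119 and 11.7 CPM in controls and 85.6 and 48.4 CPM after IC. Library 2 was the highest control of both MHCII+ subsets, and in each the IC libraries fell within the range of the controls. Aqp1, which encodes a water channel, had 436, 530 and 564 CPM in LYVE1+CX3CR1+ controls and 898, 427 and 789 CPM after IC. MHCII+CD11c- libraries had 67.6, 299 and 23.7 CPM in controls and 337, 121 and 43.8 CPM after IC. MHCII+CD11c+ libraries had 17.9, 185 and 6.05 CPM in controls and 77.7 and 35.5 CPM after IC. For Aqp1 the treatments overlapped in all 3 subsets.

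None of these 3 genes was called after IC in any subset, with log2 changes from -0.32 to 1.04 and SEs from 0.80 to 1.64. Their intervals were wide, for Vsig4 from -2.55 to 3.79 in LYVE1+CX3CR1+ macrophages although its libraries there did not overlap, in a fit that shares 1 estimate of the spread over all groups. In a fit to LYVE1+CX3CR1+ libraries alone, Vsig4 (0.69, adjusted p = 0.0437) and Lyve1 (0.96, adjusted p = 0.0161) were called higher after IC. Trem2 in MHCII+CD11c+ macrophages changed by 0.43 with 17 libraries and was called higher after IC without both control libraries 2 (2.19, adjusted p = 0.00904). With 13 libraries the change was 1.73. Control library 2 was left out for high levels of LYVE1+CX3CR1+ genes and had the most Trem2 of its group. The larger change of Trem2 therefore follows in part from that choice. No gene of Trem2 signaling (11 tested), of complement C3 receptors and regulators (10 tested) or of the other aquaporins (3 tested) was called after IC in any subset. Of 8 tested genes of lining macrophages other than the members, only Axl, a receptor for dying cells, was called, in MHCII+CD11c- macrophages (0.87 ± 0.20, adjusted p = 0.0329).

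**Figure D2:**
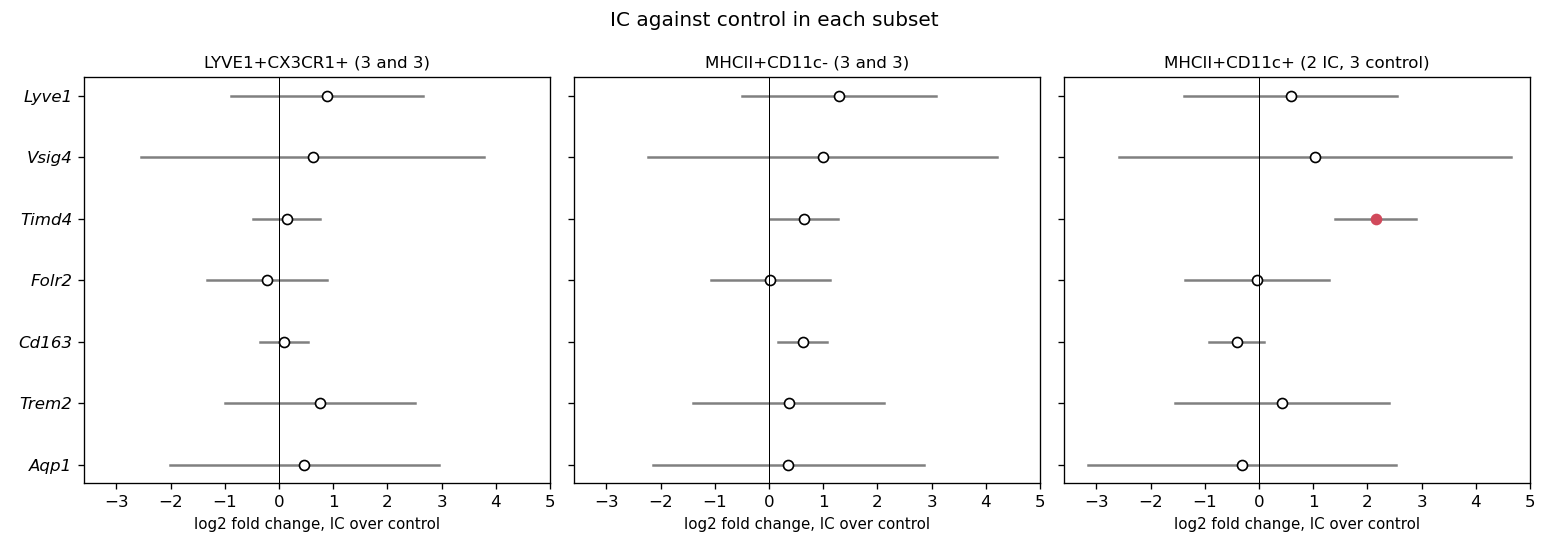
Log2 fold change of IC over control for the 7 genes in each subset (points, with 95% intervals from the fit to 17 libraries, filled where the adjusted p was under 0.05). Only Timd4 in MHCII+CD11c+ macrophages is filled, at 2.15, and the intervals of Vsig4 and Aqp1 span several log2 units in every subset.

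Over the 7 members, none was called after IC in LYVE1+CX3CR1+ macrophages, where 0.963% of all tested genes (147) were called. In MHCII+CD11c- macrophages none was called either, against 0.701% of tested genes (107). At an unadjusted p under 0.05, 2159 and 1526 genes passed in these 2 comparisons. DESeq2 called 433 and 286 genes, with no member in either, but it gave no adjusted p for Lyve1. The groups did not overlap for 3 members in LYVE1+CX3CR1+ macrophages (Lyve1, Vsig4 and Trem2), against 21.6% of all tested genes, and for 2 in MHCII+CD11c- macrophages (Lyve1 and Cd163), against 17.2%. The median change over the 7 members was 0.47, 0.62 and 0.43 in the 3 subsets (LYVE1+CX3CR1+ first, MHCII+CD11c+ last), beside -0.14, -0.03 and 0.01 over all tested genes.

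Between the subsets of control mice the members were highest in LYVE1+CX3CR1+ or MHCII+CD11c- macrophages and lowest in MHCII+CD11c+ macrophages. In LYVE1+CX3CR1+ against MHCII+CD11c+ controls, 4 of 7 members were called, all higher, beside 15.2% of all tested genes (2326), and the libraries did not overlap for any of the 7, beside 37.7% of all tested genes. Timd4 was 13.9-fold higher (log2 3.80 ± 0.35, adjusted p = 1.79e-07), Lyve1 13.3-fold (3.74 ± 0.90, adjusted p = 0.0147), Folr2 8.28-fold (3.05 ± 0.57, adjusted p = 0.00200) and Cd163 2.10-fold (1.07 ± 0.22, adjusted p = 0.00120). In a fit to these 2 groups alone Lyve1 was not called (3.69, adjusted p = 0.122). Vsig4, Trem2 and Aqp1 differed by 5.36 ± 1.75, 1.73 ± 0.82 and 2.85 ± 1.21 and were not called (adjusted p = 0.0636, 0.211 and 0.157). Without MHCII+CD11c+ control library 2 all 7 were called, and the share of all tested genes called in that setting is not given here. Trem2 was then at 3.50 (adjusted p = 0.00600) and Aqp1 at 5.34 (adjusted p = 0.0178). Vsig4 was then called too (adjusted p = 0.00927), but its fitted size is no measure because the remaining controls held 5 and 0 counts. Without MHCII+CD11c- control library 2 alone, Vsig4 was called as well (5.35, adjusted p = 0.0429), although that library is in neither group.

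In MHCII+CD11c- against MHCII+CD11c+ controls, 3 of 7 members were called, all higher, beside 8.66% of all tested genes (1323). Timd4 was 8.02-fold higher (3.0 ± 0.34, adjusted p = 8.08e-06), Folr2 7.73-fold (2.95 ± 0.56, adjusted p = 0.00471) and Cd163 3.03-fold (1.60 ± 0.22, adjusted p = 4.43e-05). With surrogate variables in the fit Folr2 was not called (2.48, adjusted p = 0.0659). Lyve1 was at 695 to 1131 against 25.3 to 382 CPM and was not called (2.54 ± 0.85, adjusted p = 0.0999), but was called without MHCII+CD11c+ control library 2 (4.94, adjusted p = 2.49e-07). These 4 genes were also the ones whose libraries did not overlap, beside 27.4% of all tested genes.

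In LYVE1+CX3CR1+ against MHCII+CD11c- controls no member was called, beside 1.56% of all tested genes (238) and 1564 genes at an unadjusted p under 0.05. DESeq2, which called 510 genes, called no member either, but it gave no adjusted p for Lyve1. Lyve1, Vsig4 and Aqp1 did not overlap between these groups, and neither did 21.6% of all tested genes. Timd4 was higher by 0.79 ± 0.30 (adjusted p = 0.288) and Cd163 lower by -0.53 ± 0.22 (adjusted p = 0.337), and Folr2 was at like levels (0.10 ± 0.51, 95% interval -1.0 to 1.20). Single libraries changed these calls. Cd163 was called without MHCII+CD11c- control library 2 (-0.76, adjusted p = 0.0419) and Timd4 without library 3 of that group (1.28, adjusted p = 0.0288). Lyve1 was called without MHCII+CD11c+ control library 2 (1.20, adjusted p = 0.0266). The latter library is in neither group, and the Lyve1 difference was 1.20 with 17 libraries too, so only the shared fit changed. Without both control libraries 2 there were 4 calls, Lyve1, Vsig4 and Trem2 higher and Cd163 lower in LYVE1+CX3CR1+ macrophages. Trem2 was at 2.03 (adjusted p = 0.00287) and Cd163 at -0.79 (adjusted p = 0.00345), and the share of all tested genes called in that setting is not given here.

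After IC the same pairs were compared in other libraries. Cd163 was the one member called between LYVE1+CX3CR1+ and MHCII+CD11c- macrophages, lower in the former by -1.06 ± 0.22 (adjusted p = 0.00447), beside 5.54% of all tested genes (846), and it was called in all 29 alternatives. Libraries did not overlap for 5 members (Lyve1, Vsig4, Trem2 and Aqp1 higher and Cd163 lower in LYVE1+CX3CR1+), beside 21.9% of all tested genes. In LYVE1+CX3CR1+ against MHCII+CD11c+ macrophages, Lyve1 (4.04 ± 1.08, adjusted p = 0.0326), Timd4 (1.78 ± 0.36, adjusted p = 0.00211), Folr2 (2.86 ± 0.66, adjusted p = 0.0118) and Cd163 (1.57 ± 0.25, adjusted p = 2.00e-04) were called higher, beside 11.9% of all tested genes (1824). None of the 7 overlapped there, beside 40.9% of all tested genes. In MHCII+CD11c- against MHCII+CD11c+ macrophages, Timd4 (1.5 ± 0.36, adjusted p = 0.0168), Folr2 (3.02 ± 0.66, adjusted p = 0.0189) and Cd163 (2.63 ± 0.27, 6.20-fold, adjusted p = 3.76e-06) were called higher, beside 4.03% of all tested genes (616), and these 3 and Lyve1 did not overlap, beside 36.6%.

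With only 2 MHCII+CD11c+ libraries after IC, several of these calls depended on 1 library. Without MHCII+CD11c+ IC library 2, Lyve1 (3.58, adjusted p = 0.285), Timd4 (1.74, adjusted p = 0.0503) and Folr2 (2.43, adjusted p = 0.187) were no longer called against LYVE1+CX3CR1+ macrophages. Lyve1 was also lost without MHCII+CD11c+ IC library 1 (4.72, adjusted p = 0.129) and without LYVE1+CX3CR1+ IC library 3 (3.95, adjusted p = 0.0582). Against MHCII+CD11c- macrophages, Timd4 and Folr2 were lost without either MHCII+CD11c+ IC library (Timd4 1.53 and 1.44, adjusted p = 0.138 and 0.289, and Folr2 3.66 and 2.56, adjusted p = 0.0862 and 0.390) and without MHCII+CD11c- IC library 3 (1.34 and 2.67, adjusted p = 0.0709 and 0.0532), and Timd4 also without MHCII+CD11c- IC library 1 (1.35, adjusted p = 0.0533). Lyve1 was called in that pair without MHCII+CD11c+ control library 2 (3.24, adjusted p = 2.54e-05). This control library is not in the pair, and the difference was 3.24 with 17 libraries too. Cd163 was called in every alternative of all 3 comparisons after IC.

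**Figure D3:**
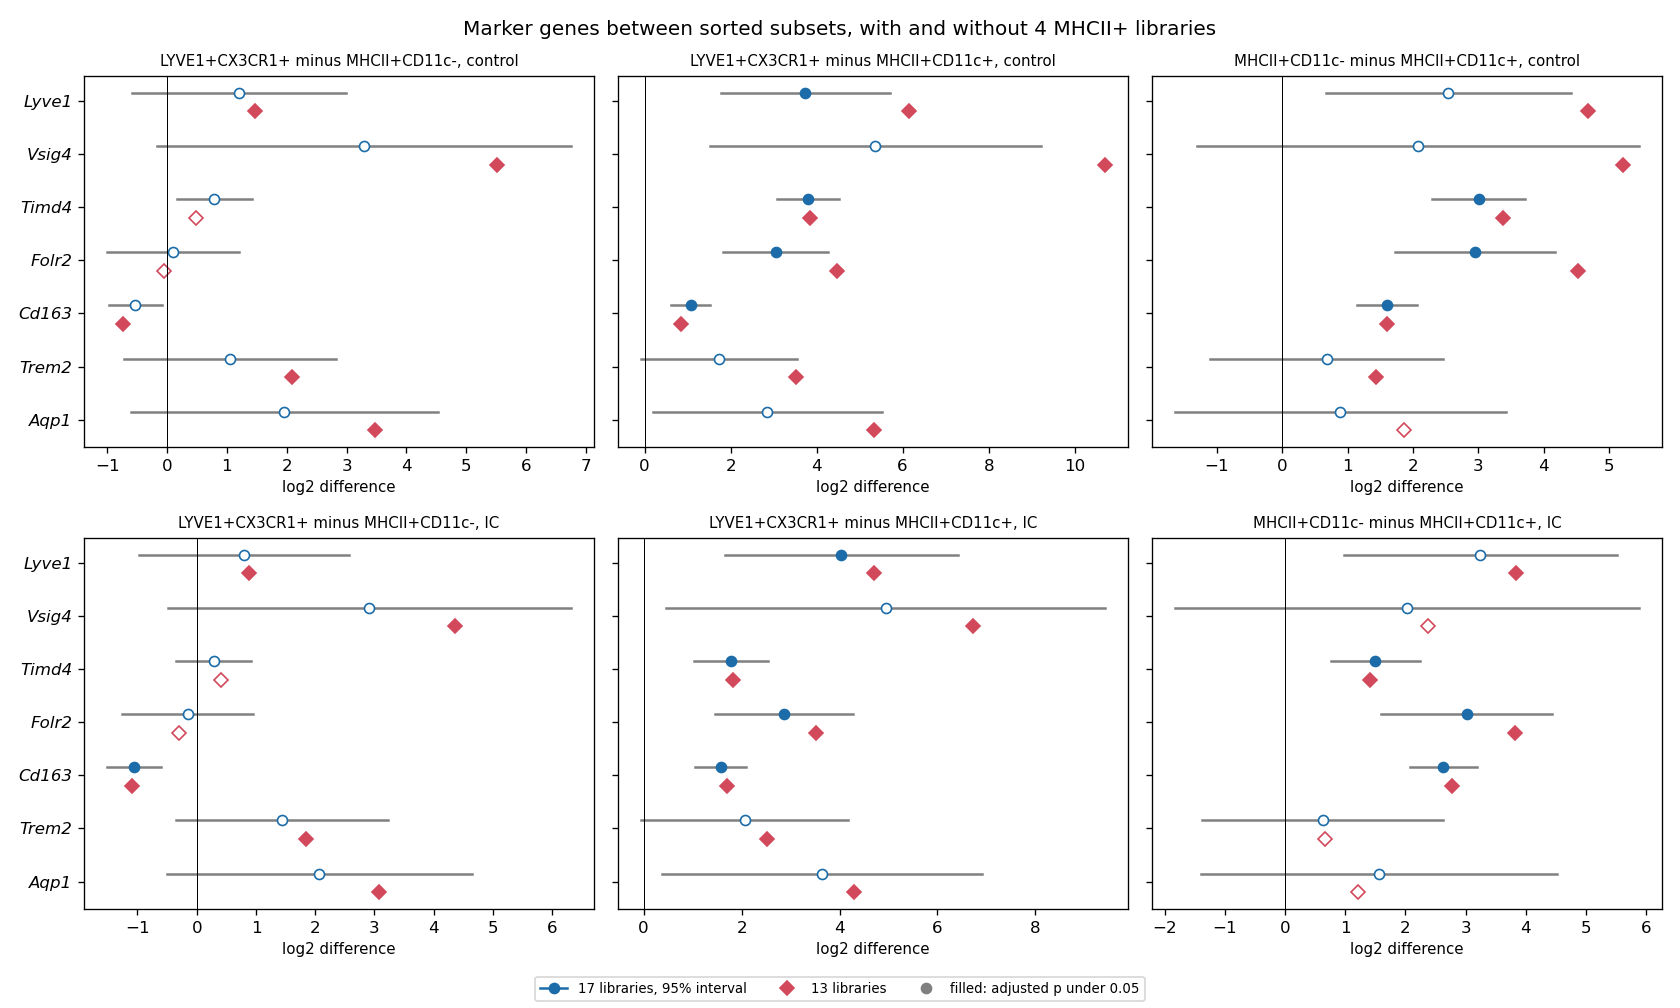
Log2 differences of the 7 genes between pairs of subsets (upper row controls, lower row IC), with circles and 95% intervals for the fit to 17 libraries, diamonds for 13 libraries, and filled symbols where the adjusted p was under 0.05. Timd4, Folr2 and Cd163 are filled against MHCII+CD11c+ macrophages in both rows, whereas Vsig4, Trem2 and Aqp1 are filled only among the diamonds, and the Vsig4 diamond at 10.7 rests on control libraries with 5 and 0 counts.

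Per kilobase of exon, Vsig4 and Lyve1 led in LYVE1+CX3CR1+ controls with 790 and 670 CPM per kb, followed by Cd163 (222), Aqp1 (194), Folr2 (78.9), Timd4 (72.5) and Trem2 (33.5). After IC, Lyve1 and Vsig4 were at 1240 and 1212 CPM per kb. In MHCII+CD11c+ controls Cd163 was first with 106 CPM per kb and Timd4 last with 5.24, and after IC Timd4 was at 23.2 CPM per kb. Levels of 2 genes were compared on this scale only.

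Other genes of resident macrophages were compared in the same pairs. Of 15 genes of macrophages around vessels, MHCII+CD11c+ controls had lower levels of 11 than LYVE1+CX3CR1+ controls and of 13 than MHCII+CD11c- controls, as called, and none was called between the latter 2 subsets. Among them, the transcription factor gene Maf was higher by 3.54 ± 0.23 in LYVE1+CX3CR1+ and by 3.21 ± 0.22 in MHCII+CD11c- macrophages. F13a1, a coagulation factor chain, was higher by 2.41 ± 0.23 and 2.30 ± 0.23. After IC, 4 of the 15 were lower in the LYVE1+CX3CR1+ subset compared with MHCII+CD11c-, as Cd163 was, namely Mrc1 (-1.03 ± 0.21), Ccl24 (-3.05 ± 0.34), Cd209f (-5.46 ± 0.85) and Cd209g (-5.08 ± 0.86). Mrc1 encodes the mannose receptor and Ccl24 a chemokine for eosinophils, and Ccl24 also rose in MHCII+CD11c- macrophages after IC (1.59 ± 0.32, adjusted p = 0.0252).

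Of 8 tested genes of lining macrophages other than the members, LYVE1+CX3CR1+ controls exceeded MHCII+CD11c+ controls for 3, Cx3cr1 (3.34 ± 0.77), Sparc (3.58 ± 0.91) and Mfge8 (2.46 ± 0.49), and were lower for Axl (-0.63 ± 0.20). Cx3cr1 encodes the fractalkine receptor, which was itself part of the gate. Of 10 tested genes of phosphatidylserine uptake, 5 were higher and 2 lower in this pair, led by Gas6, the ligand of the receptor encoded by Mertk (3.61 ± 0.33), Mertk itself (2.87 ± 0.35) and Stab1 (3.66 ± 0.45). Of 9 genes of hemoglobin and heme handling, 5 were higher, led by Hmox1 (1.42 ± 0.18) and Blvrb, a biliverdin reductase (1.62 ± 0.29), and none was lower.

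The remaining pathway genes were split in LYVE1+CX3CR1+ against MHCII+CD11c+ controls. Of 8 tested hyaluronan genes, Hyal1 (3.70 ± 0.88), Hyal2 (2.86 ± 0.61) and Cemip2 (1.17 ± 0.22), which encode hyaluronan-degrading enzymes, were higher, and Cd44 (-1.53 ± 0.28), another hyaluronan receptor, was lower. Of 9 folate genes, 2 were higher, among them Slc46a1, the proton-coupled folate transporter (3.31 ± 0.72), and none was lower. Of 10 complement genes, 2 were higher, among them Itgam (0.60 ± 0.18), and C3 (-4.47 ± 1.04) and Itgax (-7.81 ± 0.57), the gene of CD11c and part of the gate, were lower. Of 11 genes of Trem2 signaling, Apoe (2.77 ± 0.47), which encodes a lipoprotein that Trem2 binds, was higher, and Plcg2 (-0.84 ± 0.18), Trem1 (-4.96 ± 1.31) and Treml4 (-4.40 ± 1.51) were lower. Of the 3 aquaporin genes tested, Aqp9 was lower (-7.45 ± 1.74).

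The spread between libraries of a group divided the members. Vsig4 had a pooled SD of 2.17 on the log2 scale and Aqp1 of 1.49, above 99.9% and 97.6% of all tested genes, whereas Lyve1 and Trem2 were at 1.0 (71.6% and 71.4%), Folr2 at 0.71 (53.8%), Timd4 at 0.45 (35.1%) and Cd163 at 0.32 (20.6%), beside a median of 0.64 over all tested genes. Most of this spread lay in the MHCII+ groups, since the SD of Vsig4 was 0.06 in LYVE1+CX3CR1+ controls and 2.07 and 3.94 in the MHCII+ controls. After removal of group means, Vsig4 varied with Trem2 (Pearson r = 0.98 over 17 libraries) and Aqp1 (r = 0.95), and Trem2 with Aqp1 (r = 0.93). Lyve1 varied with Folr2 (r = 0.89), Cd163 went against Trem2 (r = -0.76), and Lyve1 and Timd4 showed little relation (r = 0.07). These are descriptions over libraries that differ in depth, without a test, and the labels do not say which libraries shared a sort.

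**Figure D4:**
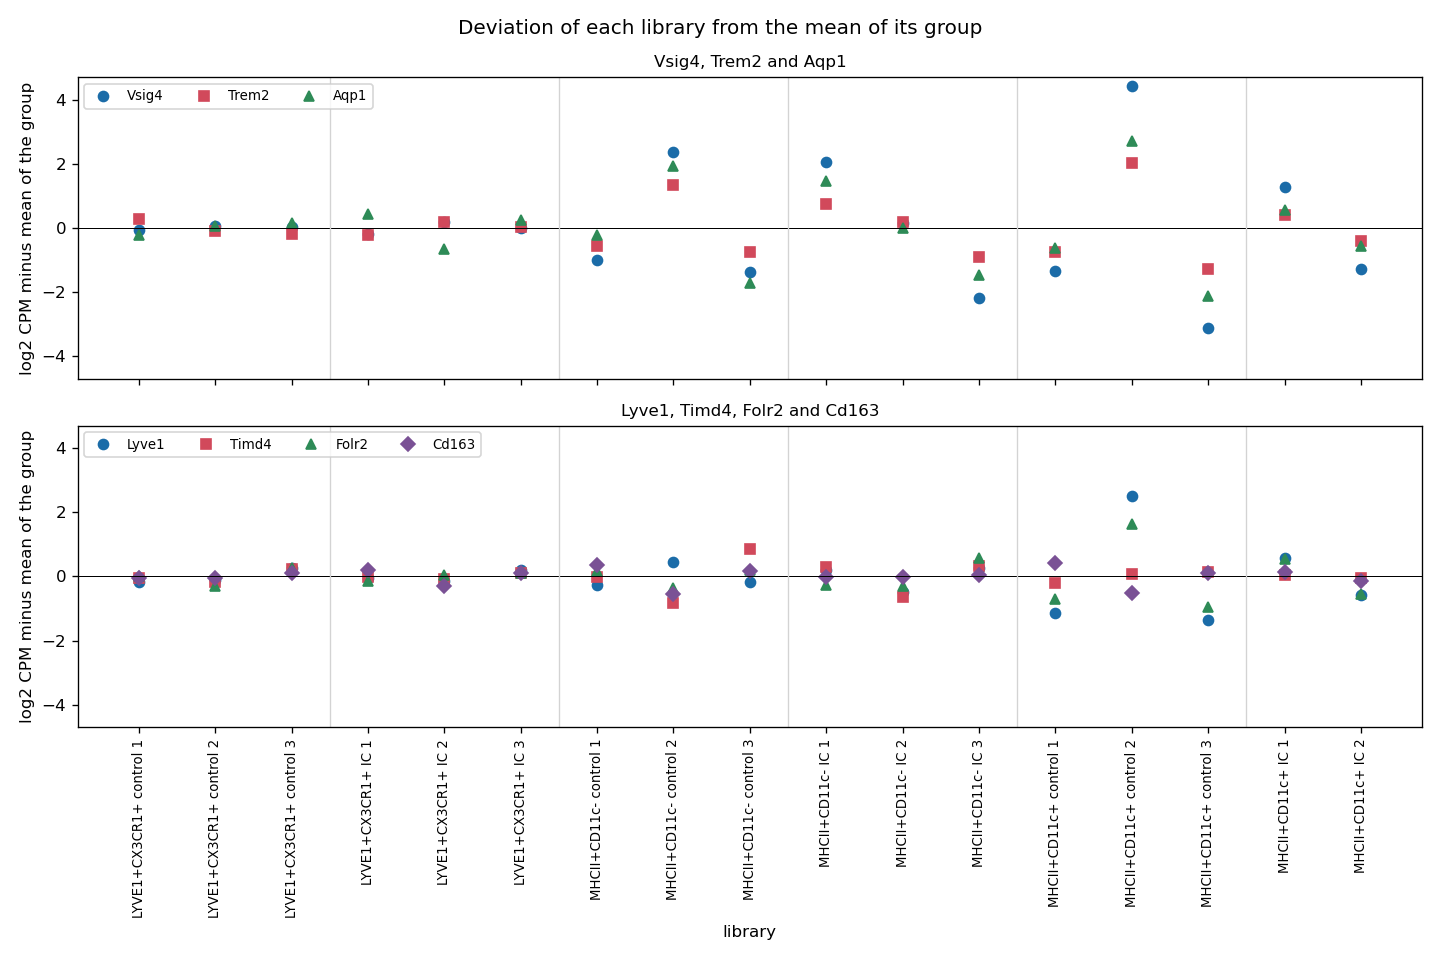
Difference of each library from the mean of its group (vertical axis, log2 CPM) for Vsig4, Trem2 and Aqp1 (upper panel) and for Lyve1, Timd4, Folr2 and Cd163 (lower panel), with libraries along the horizontal axis. Vsig4, Trem2 and Aqp1 move together, up in library 2 of both MHCII+ control groups and in library 1 of both MHCII+ IC groups, and hardly move in LYVE1+CX3CR1+ libraries other than Aqp1 after IC.

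The excess in the MHCII+ control libraries 2 was not the same share of the LYVE1+CX3CR1+ level for each member. In MHCII+CD11c- control library 2 it was 72.8% for Trem2, 49.7% for Aqp1, 23.9% for Vsig4 and 21.4% for Lyve1. Timd4, Folr2 and Cd163 were lower in that library than in the others, by shares of -43.3%, -32.8% and -73.8%. In MHCII+CD11c+ control library 2 the shares were 62.9% for Trem2, 33.9% for Aqp1, 21.4% for Folr2, 18.1% for Lyve1, 6.88% for Vsig4, 0.48% for Timd4 and -23.5% for Cd163. So Trem2 and Aqp1 exceeded the median share of other genes (23.6%) there, and Timd4 was at nearly 0. Genes of LYVE1+CX3CR1+ macrophages were thus present in these libraries, at shares that differed between genes, and whether cells carried over between gates or another population of the MHCII+ gate was the source was not tested.

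Other genes moved in these libraries too. In MHCII+CD11c- control library 2, genes of lining macrophages were higher than the mean of libraries 1 and 3, among them Sparc (182 against 28.5 CPM) and F11r, a tight-junction gene (83.1 against 7.20 CPM). Genes of macrophages around vessels were lower, among them Mrc1 (2067 against 3833 CPM), Cd209f (155 against 606 CPM) and Ccl24 (126 against 271 CPM), in the same direction as Cd163, Timd4 and Folr2. Pdpn, from the lymphatic endothelial list, was at 71.9 CPM there and at 119 CPM in MHCII+CD11c+ control library 2, but at 33.7 to 83.4 CPM in LYVE1+CX3CR1+ libraries. Prox1 and Flt4, which define lymphatic endothelium, another cell type that expresses Lyve1, were at no more than 10.3 and 3.91 CPM in any library.

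**Figure D5:**
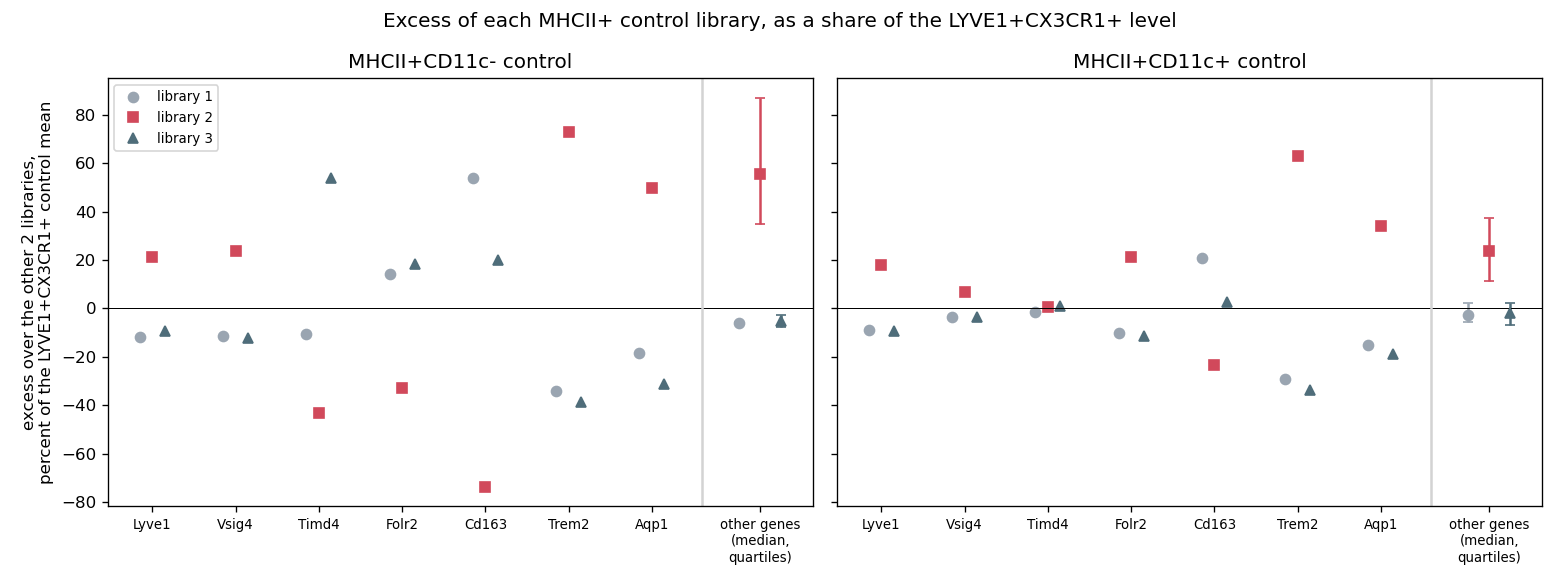
Excess of each MHCII+ control library over the other 2 libraries of its group, in percent of the mean level of LYVE1+CX3CR1+ controls, for the 7 genes and for genes at least 8 times higher in LYVE1+CX3CR1+ controls (median and quartiles). Library 2 lies highest for Trem2, at 72.8% (left panel) and 62.9% (right panel), and lowest for Cd163 in both.

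Markers of other cells were summed over their lists. Macrophage markers summed to 1785 to 5651 CPM over the 17 libraries. Blood endothelial markers summed to 8.48 to 63.7 CPM, lymphatic endothelial markers to 7.47 to 119 CPM, mostly Pdpn, fibroblast markers to 8.70 to 220 CPM, lymphocyte markers to 0 to 23.4 CPM, erythroid markers to 0 to 24.7 CPM, muscle markers to 0 to 20.7 CPM and mast cell markers to 0 to 35.9 CPM. Neutrophil markers reached 459 CPM in MHCII+CD11c+ controls and at most 7.67 CPM in LYVE1+CX3CR1+ libraries, and monocyte markers were at 8.71 to 39.4 CPM in LYVE1+CX3CR1+ and 224 to 1184 CPM in MHCII+ libraries. Their part in the results was not tested.

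The genes most like each member over the 17 libraries, by Pearson r of log2 CPM, were Rin2, Bin1 and Prune2 for Lyve1 (r = 0.98 each) and Hes1 (0.98), Fmn1 (0.98) and Ccn1 (0.97) for Vsig4. For Timd4 they were Arhgef10l (0.97), Lgmn (0.96) and Glul (0.96), for Folr2 Tmod1 (0.98) and Itsn1 (0.97), and for Cd163 C4b (0.92), Mrc1 (0.91) and Tlr5 (0.91). Trem2 and Aqp1 shared Pmepa1 (0.96 and 0.98) and Pald1 (0.96 and 0.97), next to Anxa3 (0.97) for Trem2 and Chst1 (0.97) for Aqp1. After removal of group means, the r of Timd4 with its 3 genes was 0.62, 0.28 and 0.57, whereas those of Aqp1 stayed at 0.93 or above.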

How the data were processed

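The deposited values are raw counts of reads for each gene symbol. The authors trimmed reads with Trim Galore, aligned them to mm10 with HISAT2 and counted them with featureCounts (Rsubread). Their tests used DESeq2, with sva against batch effects, and the batch, tool versions, annotation and use of strand are not given in the sources used here. Libraries were made from low-input total RNA with a stranded kit. Libraries were assigned to groups by their labels. Files of single libraries and the joint table were identical for 17 of 17 libraries, and 1 further column matched no label, summed to 0 and was not used. No pair of replicates was a repeat (lowest chi-square per degree of freedom 6.77).

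Counts were analyzed with edgeR 4.0.16 (R 4.3.3), after filterByExpr (minimum count 10) and TMM scaling. A quasi-likelihood model with 1 mean per group took in the 17 libraries of all 6 groups (robust option, 11 residual degrees of freedom), with Benjamini-Hochberg adjustment over 15272 genes per comparison and calls at an adjusted p under 0.05. Levels are CPM on TMM-scaled library sizes, and log2 CPM used a prior count of 2. Intervals are 95% intervals of fitted changes, and limits from counts of 0 cover counting error only. The code was tested on simulated data. Alternatives included DESeq2 1.42.0, voom in limma 3.58.1, surrogate variables (sva 3.50.0), a replicate block, thinning and leaving out libraries. The members and all 20 lists beside them were chosen with earlier results of these data known. Named are the members, the 3 genes most like each, at most 4 called genes per list and comparison by smallest p, and genes of marker lists. A few genes that this rule names are not reported here.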

Additional observations from a re-analysis of the deposited data

How the results depend on the processing

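All called members kept their direction under every alternative, and 2 results reversed, both for Lyve1. The difference of its IC effect between LYVE1+CX3CR1+ and MHCII+CD11c+ macrophages, 0.30 with 17 libraries, was -2.04 (adjusted p = 0.0223) without both control libraries 2 and -1.44 (adjusted p = 0.0195) with 13 libraries. The counts of called members below are given for IC in the LYVE1+CX3CR1+ (0), MHCII+CD11c- (0) and MHCII+CD11c+ subsets (1), for controls as LYVE1+CX3CR1+ against MHCII+CD11c- (0) and MHCII+CD11c+ (4) and MHCII+CD11c- against MHCII+CD11c+ (3), for the same pairs after IC (1, 4 and 3) and for the difference of IC effects between LYVE1+CX3CR1+ and MHCII+CD11c+ (0). Without both control libraries 2, IC gave 1 and 3 in the MHCII+ subsets, the control pairs 4, 7 and 5, the first 2 IC pairs 3 and 7, and the difference of effects 2. With 13 libraries (a set chosen after seeing the data) IC gave 1, 1 and 3, the control pairs 5, 7 and 6, the first 2 IC pairs 5 and 7, and the difference 2. Without both IC libraries 1 (also chosen after seeing the data), IC in MHCII+CD11c+ gave 0 and the last 2 IC pairs 2 and 1. With only the groups compared, IC gave 2, 1 and 0, the control pairs 1, 3 (without Lyve1, 3.69, adjusted p = 0.122) and 3, the IC pairs 3, 7 and 4, and the difference 1. With surrogate variables (5), IC in LYVE1+CX3CR1+ gave 1, the control pairs 2, 6 and 2 (without Folr2, 2.48, adjusted p = 0.0659), the IC pairs 3, 7 and 3, and the difference 1. Voom with quality weights gave 0 for IC in MHCII+CD11c+ (Timd4, adjusted p = 0.0746), 2, 6 and 4 for the control pairs and 1, 7 and 4 for the IC pairs. DESeq2 gave 5 for LYVE1+CX3CR1+ against MHCII+CD11c+ in controls and after IC, where Vsig4 and Aqp1 joined and Lyve1 had no adjusted p. Counts not given for these settings were the same as, or within 1.5 times of, those with 17 libraries. Shares of all tested genes called under each setting are not given beside these counts. A higher count of called members is therefore not read as a result about the members. The cause of these changes was not tested, other than the smaller sets of libraries.

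Leaving out 1 library at a time gave 0 to 1 for IC in MHCII+CD11c- and 0 to 2 in MHCII+CD11c+, 0 to 1, 4 to 7 and 3 to 4 for the control pairs, 1 to 4 for the second IC pair, 1 to 4 for the last, and 0 to 1 for the difference. A group left with 1 library is assumed to vary like the others. The labels do not say what a replicate number marks. Deviations from the group mean of same-numbered libraries of a treatment all correlated positively, but weakly (r = 0.00129 to 0.286), those between treatments had r of -0.153 to 0.0817, and in 25 of 34 comparisons of a library with another subset of its treatment (2 of them without a partner of that number) its own number correlated best, a hint from the data and not from the design. Since r was not over 0.1 in every pair, the numbers were not taken to pair libraries. A replicate block gave 1 for the difference of effects (Timd4, adjusted p = 0.0223), and a block within treatment 7 for LYVE1+CX3CR1+ against MHCII+CD11c+ controls and 1 for the difference (Timd4, adjusted p = 0.0158). Under these blocks, Lyve1 or Folr2 was no longer called in the last 2 IC pairs (adjusted p = 0.0541 to 0.106). DESeq2 size factors moved the median over all genes from -0.21 to -0.04 in that difference, from -0.16 to -0.03 in that against MHCII+CD11c- and from -0.12 to -0.02 in LYVE1+CX3CR1+ against MHCII+CD11c+ after IC, with no change in the calls of members. Depth limits Vsig4 most, at 0 and 5 counts in MHCII+CD11c+ control libraries.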
